A study of Mus musculus with 22 samples.

Results

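Serum amyloid A, lipocalin and related acute phase genes were followed in the distal colon of C57BL/6, Winnie and Winnie-Prolapse mice. The set held 8 genes of the 46078 in the deposited count table, matched by gene symbol: Saa1, Saa2, Saa3, Lcn2, Hp, Cp, Lrg1 and Lbp. RNA sequencing had been carried out on 22 mice. C57BL/6 mice (n = 8, 4 males and 4 females) were wild-type animals aged 14 weeks, and Winnie mice (n = 7, 3 males and 4 females), which carry a missense mutation in Muc2, the gene of the main colonic mucin, and have spontaneous colitis, were also aged 14 weeks. Winnie-Prolapse mice (n = 7, 4 males and 3 females) were Winnie mice with a rectal prolapse, aged 18 weeks, so that prolapse and age cannot be told apart. No agent was given to any group.

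Acute phase proteins are plasma proteins whose synthesis rises during inflammation. Most are made in the liver under the control of interleukin-6 and interleukin-1, through STAT3, NF-kappa B and C/EBP transcription factors, and epithelial cells, macrophages, neutrophils and fat cells can make some of them locally. The set covers serum amyloid A apolipoproteins (Saa1, Saa2, Saa3), a siderophore-binding lipocalin that withholds iron from bacteria (Lcn2), a haemoglobin scavenger (Hp), a copper-carrying ferroxidase (Cp), a leucine-rich glycoprotein that modulates TGF-beta signalling (Lrg1) and a carrier of bacterial lipopolysaccharide (Lbp). In the colon, LCN2 in stool is widely used as a marker of inflammation, and Saa1 and Saa3 are known to be made by the intestinal epithelium.

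Libraries held 24817527 to 36344372 counts, and the upper limit set by a count of 0, which is 3 counts, stood at 0.0825 to 0.121 CPM, that is counts scaled to a common library size. Intervals and floors cover counting error only. Winnie-Prolapse replicate 6 stood apart, since 18.9% of its counts came from 7 milk protein genes, which held at most 0.00589% in the other 21 libraries. Results that rest on it are given with and without it, except in the fits of females alone, the counts over gene lists and the likeness of other genes to the members. Defining genes of colon epithelium were high in every library, with a summed level of 9 markers (among them Krt8 and Krt19) of 9553 CPM or more. Of 7 liver markers, the 2 highest were Ttr, with at most 63.4 CPM, and Cyp2e1, with at most 27.3 CPM. Alb, the albumin gene, had at most 4.12 CPM in any library. In whole tissue, fewer cells of a type and less RNA per cell cannot be told apart.

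Of the 8 genes, 6 rose in Winnie-Prolapse colon (Saa3, Lcn2, Hp, Cp, Lrg1 and Lbp), each with every Winnie-Prolapse library above every C57BL/6 library. Of the 17397 genes tested there, 9.84% were higher at an adjusted p under 0.001 (edgeR) and 6.5% were higher with no overlap. Saa3 had 2 to 112 counts in C57BL/6 libraries and passed the low-count filter of this test through Winnie-Prolapse. Its place among the 6 is therefore not a result. Saa1 was by far the most abundant in C57BL/6 colon and did not pass the edgeR test in any comparison over all libraries. Saa2 was at most 1.79 CPM in all libraries but Winnie-Prolapse replicate 6. In Winnie colon, 4 genes (Lrg1, Lcn2, Lbp and Cp) passed at an adjusted p under 0.05 and none at 0.001. Of all genes tested there, 7.42% and 0.0868% were higher at these limits.

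**Figure D1:**
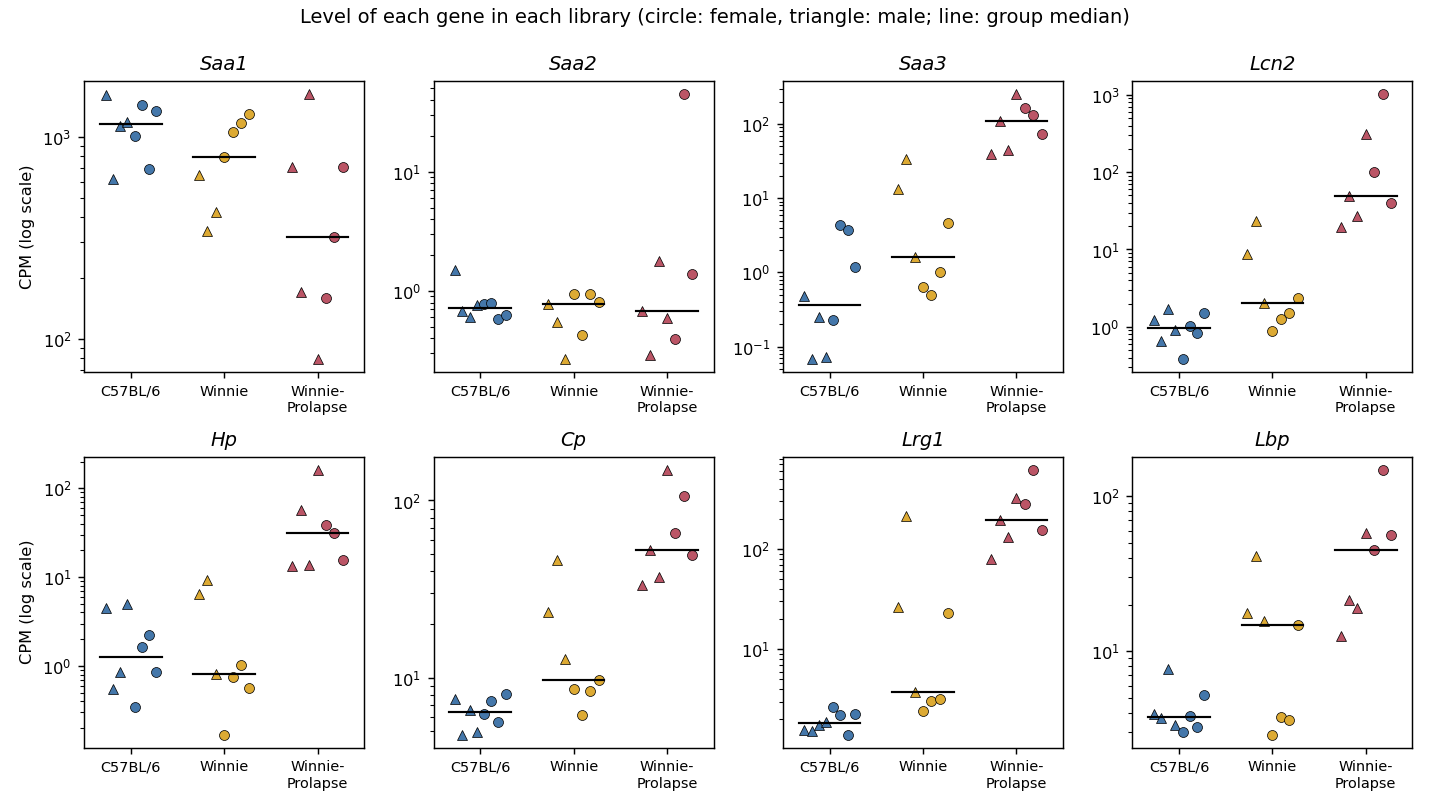
Level of each of the 8 genes in each library, in CPM on a log axis that differs between panels, for C57BL/6 (n = 8), Winnie (n = 7) and Winnie-Prolapse (n = 7) mice. Circles are females, triangles are males and lines are group medians. For Saa3, Lcn2, Hp, Cp, Lrg1 and Lbp all 7 Winnie-Prolapse libraries lie above all 8 C57BL/6 libraries, whereas Saa1 is spread from 79.6 to 1622 CPM in Winnie-Prolapse. Of all genes tested, 6.5% were higher in Winnie-Prolapse than in C57BL/6 with no overlap. Saa3 passed the low-count filter there through Winnie-Prolapse.

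The 3 serum amyloid A genes of the set lie in one stretch of chromosome 7 (GRCm38, GENCODE M21): Saa3 at chr7:46711998-46715700 on the minus strand, Saa1 at chr7:46740497-46742980 on the minus strand and Saa2 at chr7:46751790-46754313 on the plus strand. Saa3 and Saa1 are 24.8 kb apart, with Saa4 between them, and Saa1 and Saa2 are 8.81 kb apart and are transcribed away from each other. The sequences upstream of the 3 starts are shown because Saa1 and Saa2, which have nearly the same upstream sequence, were at very different levels. Each run covers bases 250 to 51 before the RefSeq start (GRCm38.p6), read on the strand of the gene, and lies at chr7:46743031-46743230 for Saa1, chr7:46751583-46751782 for Saa2 and chr7:46715727-46715926 for Saa3. Capitals mark matches to TTGCNNAA, a C/EBP-type motif, on either strand.
Saa1: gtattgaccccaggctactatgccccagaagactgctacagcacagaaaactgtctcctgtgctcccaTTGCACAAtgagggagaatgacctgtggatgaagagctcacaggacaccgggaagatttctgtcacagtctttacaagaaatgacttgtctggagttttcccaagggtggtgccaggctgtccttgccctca
Saa2: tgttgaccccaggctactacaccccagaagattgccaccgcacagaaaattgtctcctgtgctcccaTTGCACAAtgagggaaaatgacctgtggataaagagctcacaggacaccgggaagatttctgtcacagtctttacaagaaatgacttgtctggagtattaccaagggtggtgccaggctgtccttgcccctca
Saa3: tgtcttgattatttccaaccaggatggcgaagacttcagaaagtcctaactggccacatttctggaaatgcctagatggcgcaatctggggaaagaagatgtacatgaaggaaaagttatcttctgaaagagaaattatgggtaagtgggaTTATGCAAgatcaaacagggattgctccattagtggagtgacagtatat

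Over this window Saa1 and Saa2 were identical in 188 of 201 aligned columns (93.5%), against 125 of 239 (52.3%) for Saa1 and Saa3. The motif began 182 bases before the start in Saa1, 183 in Saa2 and, on the opposite strand, 99 in Saa3. It is not rare, since 8.11% of 32851 promoter windows of the same length held it on either strand. A STAT-type motif, TTCNNNGAA, had no match in the 3 windows and was held by 5.76% of all windows. A longer C/EBP-type motif, TTNNGNAAT, overlapped the first one on the opposite strand in Saa1 and Saa2, from 183 and 184 bases before the start, and was not found in Saa3 (8.68% of all windows held it). A kappa B-type motif, GGG and CC with 5 bases between, began 78 bases before the start in Saa1 and 79 in Saa2, was not found in Saa3 and was held by 37.2% of all windows. Promoters were found for 6 of the 8 genes. The longest protein-coding transcripts of Saa1 (609 bases) and Saa2 (652 bases) were identical in 572 of 655 aligned columns (87.3%). Of the 560 stretches of 50 bases in the Saa1 transcript, 74 (13.2%) also occurred in a Saa2 transcript, and of the 510 stretches of 100 bases none did. How reads that fit both genes were counted is not given in the sources used here, so their split is uncertain.

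Saa1 (ENSMUSG00000074115), an acute phase apolipoprotein of high-density lipoprotein, had from 617 to 1612 CPM in C57BL/6, with a median of 1160. In Winnie it had from 340 to 1300 CPM, with a median of 794, and in Winnie-Prolapse from 79.6 to 1622 CPM, with a median of 318. The groups overlapped: 4 of 7 Winnie-Prolapse libraries lay below the lowest C57BL/6 library, and 1 lay above the highest. On the log2 scale Saa1 differed from C57BL/6 by -0.36 ± 0.30 (SE) in Winnie colon and by -0.92 ± 0.53 (SE) with prolapse, and neither passed (adjusted p = 0.394 and 0.158, edgeR quasi-likelihood test with Benjamini-Hochberg adjustment). Without the highest Winnie-Prolapse library, replicate 3, the difference in Winnie-Prolapse was -1.54 ± 0.47 (SE) with an adjusted p of 0.0122 in the same test, and with limma-voom on all libraries it was -1.55 ± 0.56 (SE, adjusted p = 0.0295). Winnie-Prolapse replicate 3 also had the highest summed level of epithelial markers in its group (17125 CPM). The lowest Saa1 was in Winnie-Prolapse replicate 4, at 12210 CPM of epithelial markers, and the lowest epithelial sum, 9553 CPM, was in replicate 6. The part of these markers in the Saa1 level was not tested.

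Saa2 (ENSMUSG00000057465), the close relative of Saa1, had 0.58 to 1.5 CPM in C57BL/6, 0.27 to 0.949 CPM in Winnie and 0.291 to 1.79 CPM in the Winnie-Prolapse libraries other than replicate 6. Replicate 6 had 44.6 CPM, from 1106 counts, and was the library rich in milk protein transcripts. In the other 21 libraries Saa2 had 7 to 59 counts, and Saa1 had 134 to 2474 times as many. Saa2 made up 12.3% of the Saa1 and Saa2 counts of Winnie-Prolapse replicate 6 (95% Wilson interval 11.6% to 13%), and from 0.0404% to 0.742% elsewhere. The log2 fold change in Winnie-Prolapse against C57BL/6 was 3.46 ± 1.06 (SE) with an adjusted p of 0.0125 (edgeR quasi-likelihood test). Without replicate 6 it was 0.23 ± 0.41 (SE) with an adjusted p of 0.668, so that the call rests on that library.

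Saa3 (ENSMUSG00000040026), the serum amyloid A gene known to be made outside the liver, had from 0.0684 to 4.4 CPM in C57BL/6, with a median of 0.366. The lowest of these values were below the floor of 3 counts. Saa3 passed the low-count filter against C57BL/6 through the groups where it was higher, so that the size of its rise from C57BL/6 is uncertain. In Winnie it had from 0.492 to 33.9 CPM, with a median of 1.62, and 3 of 7 libraries lay above every C57BL/6 library. In Winnie-Prolapse it had from 39.3 to 253 CPM, with a median of 109, and every library lay above every library of both other groups. The log2 fold change was 2.65 ± 1.01 (SE) in Winnie, which did not pass (edgeR quasi-likelihood test, adjusted p = 0.0637), and 6.54 ± 0.80 (SE) in Winnie-Prolapse, which did (adjusted p = 1.11e-05). Between Winnie-Prolapse and Winnie it was 3.90 ± 0.89 (SE, adjusted p = 0.0223 in the same test), and 4.97 ± 0.82 (SE, adjusted p = 0.00476) without Winnie replicate 2. The Winnie value passed at 0.05 with DESeq2 (adjusted p = 0.0394), with all 3 groups in one fit (0.033) and with the bias-adjusted quasi-likelihood fit (0.0496). It also passed without C57BL/6 replicate 6, C57BL/6 replicate 7 or Winnie replicate 5 (adjusted p = 0.0433, 0.041 and 0.0359), and fell to 1.56 ± 0.93 (SE, adjusted p = 0.248) without Winnie replicate 2, its highest library.

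Lcn2 (ENSMUSG00000026822, chr2:32384633-32388252, minus strand), the lipocalin that binds bacterial siderophores, had 0.386 to 1.71 CPM in C57BL/6, with a median of 0.963. In Winnie it had 0.878 to 23.2 CPM, with a median of 2, and in Winnie-Prolapse 19.7 to 1015 CPM, with a median of 49.7. The highest value was again in Winnie-Prolapse replicate 6, more than 3 times the next library (307 CPM, replicate 4), and the mean was 223 ± 363 CPM (SD, n = 7) with it and 90.8 ± 110 CPM (SD, n = 6) without it. Lcn2 rose by 2.49 ± 0.64 (SE) in Winnie colon and by 7.96 ± 1.0 (SE) with prolapse on the log2 scale (edgeR quasi-likelihood test, adjusted p = 0.0131 and 1.44e-05). Without replicate 6 the Winnie-Prolapse difference was 6.43 ± 0.61 (SE, adjusted p = 2.48e-06). Without Winnie replicate 2 the Winnie difference was 1.52 ± 0.47 (SE, adjusted p = 0.0402), and with limma-voom it did not pass (1.70 ± 0.66, SE, adjusted p = 0.0672). Against Winnie, Lcn2 was higher by 5.47 ± 1.17 (SE) on the log2 scale (adjusted p = 0.0184 in the same test), by 3.93 ± 0.87 (SE, adjusted p = 0.0334) without replicate 6, and by 6.44 ± 1.21 (SE, adjusted p = 0.00646) without Winnie replicate 2.

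Hp (ENSMUSG00000031722, chr8:109575128-109579172, minus strand) encodes haptoglobin, which binds free haemoglobin. It had 0.347 to 4.99 CPM in C57BL/6, with a median of 1.26, and 0.169 to 9.32 CPM in Winnie, with a median of 0.81. These groups overlapped, and the difference of 0.52 ± 0.75 (SE) on the log2 scale did not pass (edgeR quasi-likelihood test, adjusted p = 0.636). In Winnie-Prolapse it had 13.2 to 161 CPM, with a median of 31.3, above every library of both other groups. Hp rose by 4.57 ± 0.67 (SE) against C57BL/6 and by 4.06 ± 0.86 (SE) against Winnie on the log2 scale (adjusted p = 5.66e-05 and 0.0183 in the same test), the latter being 4.75 ± 0.87 (SE, adjusted p = 0.00606) without Winnie replicate 2. Winnie-Prolapse replicate 4, the highest, had 161 CPM and the next, replicate 2, 57.5 CPM. Without replicate 4 the difference from C57BL/6 was 3.90 ± 0.56 (SE, adjusted p = 7.39e-05 in edgeR).

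Cp (ENSMUSG00000003617, chr3:19957054-20009145, plus strand) encodes ceruloplasmin, which carries copper and oxidises iron. It had 4.79 to 8.05 CPM in C57BL/6, with a median of 6.41. Winnie libraries had 6.14 to 45.9 CPM, with a median of 9.78, and 6 of 7 lay above every C57BL/6 library. Winnie-Prolapse libraries had 33.4 to 149 CPM, with a median of 52.3. Cp rose against C57BL/6 by 1.42 ± 0.36 (SE) in Winnie colon and by 3.54 ± 0.31 (SE) with prolapse on the log2 scale (edgeR quasi-likelihood test, adjusted p = 0.0117 and 5.26e-07), and by 2.13 ± 0.47 (SE, adjusted p = 0.0203) between Winnie-Prolapse and Winnie. Cp overlaps Hps3 on the other strand. The library kit kept strand, but the strand setting of the counting is not given in the sources used here.

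Lrg1 (ENSMUSG00000037095, chr17:56119678-56122001, minus strand), the TGF-beta modulator, had 1.41 to 2.66 CPM in C57BL/6, with a median of 1.83. Winnie libraries had 2.4 to 214 CPM, with a median of 3.78, and 6 of 7 lay above every C57BL/6 library. The 7 Winnie values fell apart, with 214 CPM in replicate 2, 26.7 in replicate 1, 23 in replicate 7 and at most 3.78 in the other 4 libraries. Winnie-Prolapse libraries had 80 to 616 CPM, with a median of 194. Lrg1 rose by 4.39 ± 0.92 (SE) in Winnie colon and by 7.19 ± 0.45 (SE) with prolapse on the log2 scale (edgeR quasi-likelihood test, adjusted p = 0.00548 and 2.05e-08). The medians of Winnie and C57BL/6 differed only 2.07-fold, against 20.6-fold for the means. Without Winnie replicate 2 the Winnie difference was 2.55 ± 0.54 (SE, adjusted p = 0.0105), and with limma-voom it did not pass (2.57 ± 1.02, SE, adjusted p = 0.0721). Between Winnie-Prolapse and Winnie the difference of 2.81 ± 0.99 (SE) did not pass (adjusted p = 0.0822), but it passed with limma-voom (4.33 ± 0.83, SE, adjusted p = 0.019), with DESeq2 (adjusted p = 0.0215) and without Winnie replicate 2 (4.65 ± 0.79, SE, adjusted p = 0.00495). Without Winnie-Prolapse replicate 6 it was 2.30 ± 0.96 (SE, adjusted p = 0.167).

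Lbp (ENSMUSG00000016024, chr2:158306493-158332852, plus strand) encodes the lipopolysaccharide carrier that hands bacterial lipid to CD14. It had 3.01 to 7.68 CPM in C57BL/6, with a median of 3.75. In Winnie it had 2.9 to 41.3 CPM, with a median of 14.7, and 4 of 7 libraries lay above every C57BL/6 library, whereas 1 lay below all of them. In Winnie-Prolapse it had 12.5 to 148 CPM, with a median of 45.1. Lbp rose by 1.79 ± 0.48 (SE) in Winnie colon and by 3.76 ± 0.50 (SE) with prolapse on the log2 scale (edgeR quasi-likelihood test, adjusted p = 0.0152 and 2.4e-05). Without Winnie-Prolapse replicate 6, its highest library, the latter was 3.10 ± 0.35 (SE, adjusted p = 1.02e-05), and with limma-voom the Winnie difference did not pass (1.31 ± 0.55, SE, adjusted p = 0.0854). The difference of 1.98 ± 0.67 (SE) between Winnie-Prolapse and Winnie did not pass (adjusted p = 0.075), though it did with DESeq2 (adjusted p = 0.0128) and without Winnie replicate 2 (2.49 ± 0.67, SE, adjusted p = 0.0262). It did not with limma-voom (adjusted p = 0.086), with sex as a covariate (0.127) or without Winnie-Prolapse replicate 6 (1.30 ± 0.58, SE, adjusted p = 0.193).

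**Figure D2:**
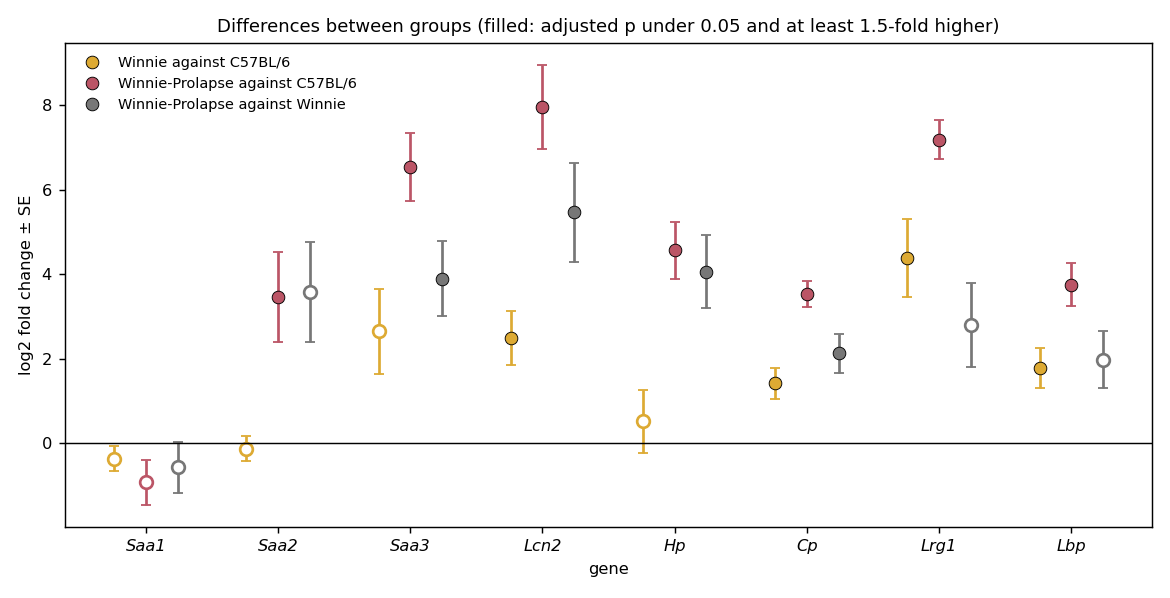
Log2 fold change ± SE of the 8 genes in the 3 comparisons (edgeR quasi-likelihood fits). Filled points passed an adjusted p under 0.05 and 1.5-fold, and open points did not. In Winnie-Prolapse against C57BL/6, 7 of 8 genes are filled, where 16.7% of all genes tested were higher. Lcn2 is at 7.96 (6.43 without Winnie-Prolapse replicate 6) and Lrg1 at 7.19, and the Saa2 point rests on 1 library. Saa3 passed the low-count filter in that comparison through Winnie-Prolapse.

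In Winnie against C57BL/6, 4 of 8 genes were higher at an adjusted p under 0.05 and 1.5-fold, where 7.42% of the 17289 genes tested were, and 0 of 8 at an adjusted p under 0.001, where 0.0868% were (edgeR quasi-likelihood test). At an unadjusted p under 0.05, 5 of 8 genes passed, where 39.9% of all genes did. With limma-voom the 0.05 limit called only Cp (Lcn2, Lrg1 and Lbp had adjusted p of 0.0672, 0.0721 and 0.0854), where 7.09% of all genes were higher. DESeq2 called Cp, Lcn2 and Lrg1 at the 0.001 limit, where 2.63% of the 29288 genes it tested were higher. No gene of the set was higher with no overlap between these groups, as 0.463% of all genes tested were. In Winnie-Prolapse against C57BL/6, 6 of 8 genes were higher at the 0.001 limit, where 9.84% of 17397 genes were, and 7 of 8 at the 0.05 limit, where 16.7% were. The 6 genes were also higher with no overlap between the groups, as 6.5% of all genes tested were. In Winnie-Prolapse against Winnie, 4 of 8 genes were higher at the 0.05 limit (Saa3, Lcn2, Hp and Cp), where 4.27% of 17041 genes were, and 0 of 8 at the 0.001 limit, where 0% were. DESeq2 called the same 4 at 0.001, where 1.65% of the 29471 genes it tested were higher. In edgeR 7 of 8 passed at an unadjusted p under 0.05, where 27.8% of all genes did. Saa3 and Hp were higher with no overlap, as 0.411% of genes were. In males alone no gene of the 17560 tested was called at 0.05 between Winnie-Prolapse and Winnie, so that this fit is not informative about the set. In females alone 6 of 8 genes were higher, all but Saa1 and Saa2 (Lrg1 by 5.56 ± 0.99, SE, adjusted p = 0.00977, and Lbp by 3.83 ± 0.72, SE, adjusted p = 0.0118, in edgeR), where 8.09% of all genes were. Over all libraries of the 2 groups the Saa1 and Saa2 differences were -0.56 ± 0.60 (SE) and 3.59 ± 1.18 (SE), with adjusted p of 0.577 and 0.0674. Without Winnie-Prolapse replicate 6 the Saa2 difference had an adjusted p of 0.712 in edgeR. The fold of mean Saa2 CPM was 10.6 with that library and 1.27 without it. The median log2 fold change of the 8 genes was 1.61, 4.17 and 3.20 in the 3 comparisons, beside -0.01, -0.01 and 0.01 over all genes tested. The 2 comparisons against C57BL/6 share the same 8 control libraries. All 8 genes passed the low-count filter in each comparison. Saa3, with 2 to 112 counts in C57BL/6 libraries, passed it against C57BL/6 through the groups where it was higher. Its place in the counts against C57BL/6 is therefore not a result.

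The 8 genes summed to 628 to 1633 CPM in C57BL/6, 460 to 1356 CPM in Winnie and 655 to 2410 CPM in Winnie-Prolapse. The 7 genes other than Saa1 summed to 12 to 21.2 CPM in C57BL/6, 15.8 to 368 CPM in Winnie and 199 to 2091 CPM in Winnie-Prolapse. The highest of these sums was in Winnie-Prolapse replicate 6, and the next was 1252 CPM in replicate 4. Levels of different genes were compared per kilobase of annotated exon (RPKM, that is CPM divided by exon length in kilobases). By median RPKM in C57BL/6, Saa1 at 468 stood above Lrg1 at 1.3, Hp at 0.782, Lbp at 0.777, Cp at 0.67, Lcn2 at 0.367, Saa2 at 0.287 and Saa3 at 0.141. Saa1 was above Lrg1 in 8 of 8 libraries, whereas Hp was above Lbp in 4 of 8, so that these neighbours did not differ beyond their spread. In Winnie-Prolapse the order was Lrg1 at 138, Saa1 at 128, Saa3 at 41.9, Hp at 19.5, Lcn2 at 18.9, Lbp at 9.34, Cp at 5.47 and Saa2 at 0.27. Lrg1 was above Saa1 in 4 of 7 of these libraries and Hp above Lcn2 in 2 of 7, so that neither pair was separated, whereas Saa3 was above Hp in 6 of 7. In Winnie, Saa1 at 321 was above Lbp at 3.04 in 7 of 7 libraries, and the 7 other genes had medians from 0.306 to 3.04. Annotated exons of Saa1 and Saa2 cover nearly the whole gene, which lowers their RPKM.

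**Figure D3:**
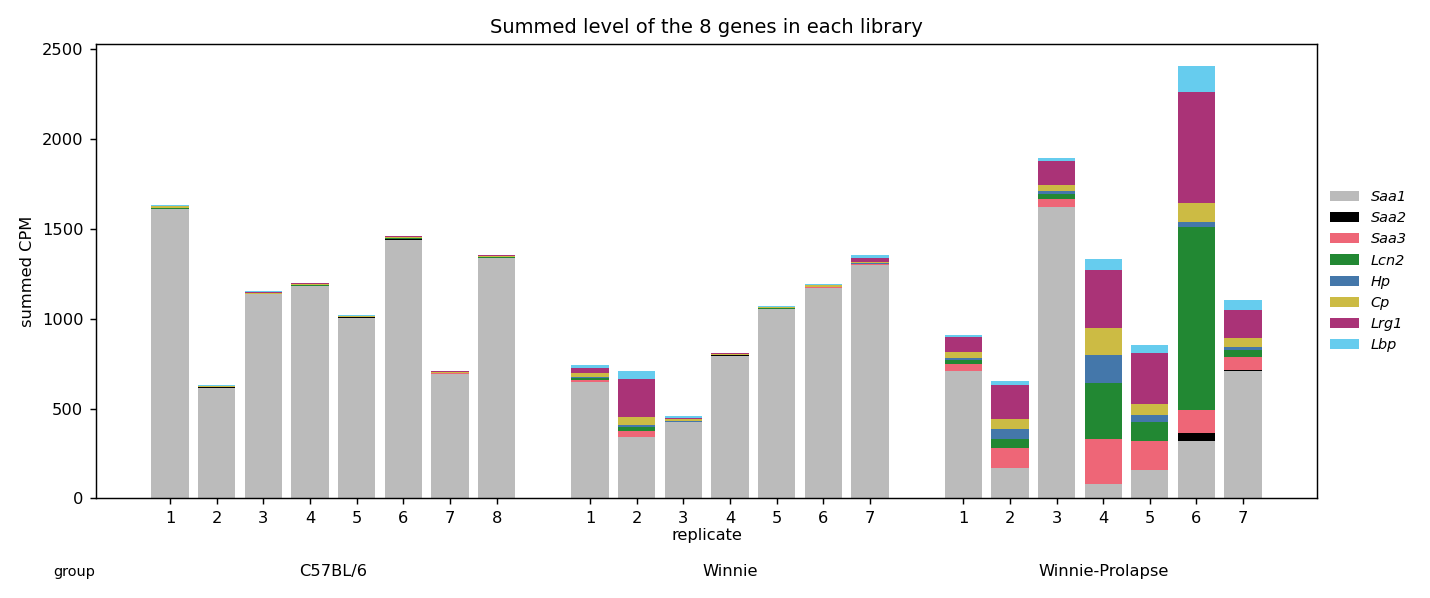
Stacked CPM of the 8 genes in each library, grouped by C57BL/6, Winnie and Winnie-Prolapse and numbered by replicate. Saa1 (grey) fills nearly the whole bar in C57BL/6, while the 7 other genes reach 199 to 2091 CPM in Winnie-Prolapse (at most 1252 CPM without replicate 6).

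The groups held both sexes, and the one-sex values are given side by side. Cp was 12.8 to 45.9 CPM in the 3 Winnie males and 6.14 to 9.78 CPM in the 4 Winnie females, and Lbp was 15.6 to 41.3 CPM and 2.9 to 14.7 CPM, with no overlap in either. Winnie replicate 2, the library highest for 6 genes of the set, is one of these males, and the 10 neutrophil markers without Ly6g split in the same way, with 17 to 125 CPM in males and 1.48 to 12.6 CPM in females. Saa3 had a median of 13.2 CPM in Winnie males and 0.824 CPM in Winnie females, and Saa1 went the other way, with 340 to 646 CPM in males and 794 to 1300 CPM in females. In males alone, Winnie against C57BL/6 gave log2 fold changes of 6.2 ± 0.99 (SE) for Saa3, 5.60 ± 1.09 (SE) for Lrg1, 3.34 ± 0.69 (SE) for Lcn2, 2.42 ± 0.40 (SE) for Lbp and 2.22 ± 0.39 (SE) for Cp, all with an adjusted p of at most 0.00897 (edgeR quasi-likelihood test). Saa1 was lower in these males, by -1.25 ± 0.35 (SE) with an adjusted p of 0.0276. Saa3 had only 2 to 14 counts in C57BL/6 males, so that the size of its rise in males is uncertain. Among all genes tested in males, 11.8% were higher and 10.7% lower at the 0.05 limit. In females alone no gene of the set passed, but only 1 of 17260 genes did (0.00579%), so that the counts in males and females cannot be set against each other. The female values were -0.37 ± 0.93 (SE) for Saa3, 2.03 ± 0.76 (SE) for Lrg1, 0.78 ± 0.45 (SE) for Lcn2, 0.84 ± 0.53 (SE) for Lbp and 0.39 ± 0.21 (SE) for Cp. The difference between sexes was tested as an interaction in all 22 libraries, and it passed for 0 of 8 genes, as for 0% of the 18911 genes tested. The closest was Saa3, whose male difference exceeded the female by 6.56 ± 1.48 (SE) on the log2 scale (edgeR quasi-likelihood test, unadjusted p = 0.00028, adjusted p = 0.226). At an unadjusted p under 0.05, Saa3, Cp (1.81 ± 0.62, SE) and Lrg1 (3.56 ± 1.32, SE) passed, as did 13.1% of all genes. Saa3 passed at an adjusted p under 0.05 in DESeq2, where 0.54% of 30360 genes did, and without Winnie replicate 7.

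In Winnie-Prolapse the same interaction passed for 0 of 8 genes, as for 0% of all genes. At an unadjusted p under 0.05 it passed for Saa2, Saa3 and Lbp, and for 5% of all genes. Without replicate 6 it passed at that level for 0 of 8 genes and 3.14% of 19332 genes, with Saa2 going from -4.77 ± 1.40 (SE) to -0.43 ± 0.86 (SE). Within each sex, Saa3, Lcn2, Hp, Cp, Lrg1 and Lbp were all higher than in C57BL/6 at an adjusted p of at most 0.0105 in edgeR, where 13% of all genes in males and 13.7% in females were higher at the 0.05 limit. Saa3 passed the low-count filter in males through Winnie-Prolapse, so that its place there is not a result. Lcn2 had 19.7 to 307 CPM in the 4 Winnie-Prolapse males and 40.1 to 1015 CPM in the 3 females, and Lbp had 12.5 to 58.1 CPM and 45.1 to 148 CPM.

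**Figure D4:**
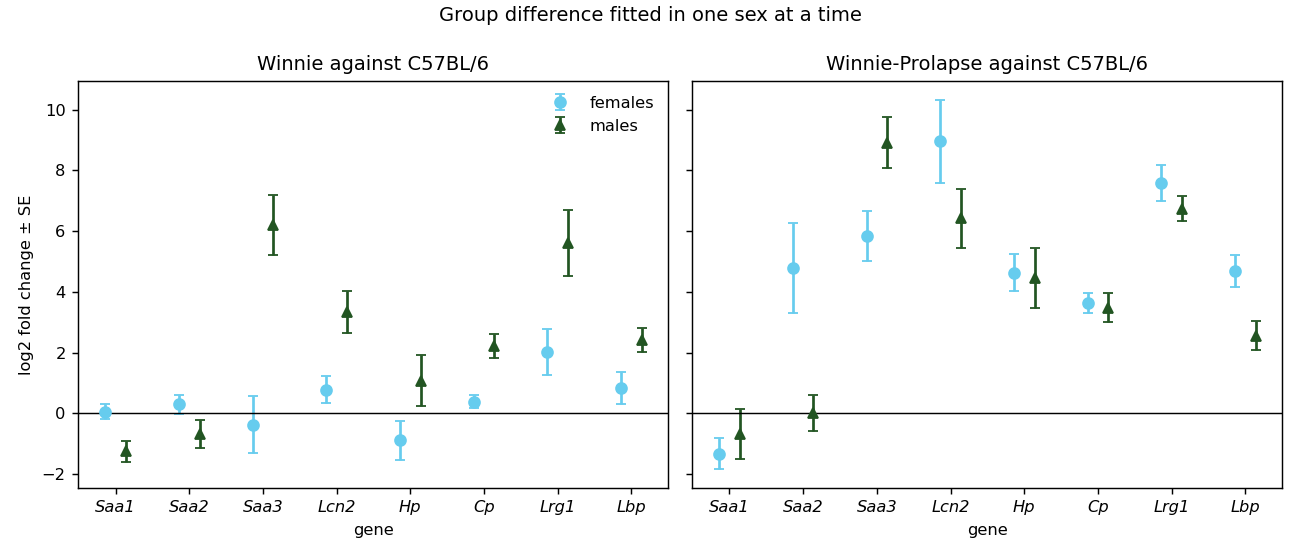
Log2 fold change ± SE of the 8 genes against C57BL/6 in females alone (circles) and males alone (triangles), for Winnie (left) and Winnie-Prolapse (right). In Winnie, Saa3 is at 6.2 in males and -0.37 in females; in Winnie-Prolapse the 6 genes from Saa3 to Lbp lie at 2.56 or above in both sexes.

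The same libraries were high for many genes of the set. Among the 7 Winnie libraries, replicate 2 had the highest level of Saa3, Lcn2, Hp, Cp, Lrg1 and Lbp. Among the Winnie-Prolapse libraries, replicate 4 was the highest for Saa3, Hp and Cp, and replicate 6 for Saa2, Lcn2, Lrg1 and Lbp. Within each group, Pearson correlations of log2 CPM between the genes were computed and tested by exact permutation, two-sided, over 84 pairs in all. Among the 6 genes other than Saa1 and Saa2, r ran from 0.753 to 0.965 in Winnie (n = 7), and 11 of 15 pairs passed an adjusted p under 0.05. In Winnie-Prolapse (n = 7) r ran from 0.36 to 0.964, and 7 of 15 pairs passed. In C57BL/6 (n = 8) r ran from -0.452 to 0.804, and 0 of 15 passed. Lcn2 and Lrg1 were the closest by rank, with r = 0.942 and a Spearman rho of 1 in Winnie, and r = 0.964 and a rho of 1 in Winnie-Prolapse (exact permutation, adjusted p = 0.00833 for each r and 0.0167 for each rho). With the 2 libraries farthest from the median left out, r for Lcn2 and Lrg1 was 0.76 and 0.972. Over all 15 pairs, r then ran from 0.0306 to 0.917 in Winnie and from 0.0495 to 0.979 in Winnie-Prolapse, so that the weaker of these relations rest on those libraries, among them Hp with Cp, Lrg1 and Saa3 in Winnie (0.0306, 0.122 and 0.182) and Hp and Saa3 with Lbp in Winnie-Prolapse (0.0495 and 0.129). The correlations take no account of sex, and a group held at most 4 libraries of 1 sex, too few for a correlation within it.

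The r of Saa1 with the 6 genes was from -0.788 to -0.495 in Winnie, where none passed (lowest adjusted p = 0.105) and the 3 males lay below the 4 females for Saa1 and above them for Cp and Lbp, and from -0.932 to -0.383 in Winnie-Prolapse, where Saa3 and Hp passed. In Winnie-Prolapse, r was -0.917 with Saa3 and -0.932 with Hp (exact permutation, adjusted p = 0.0333 for each), and the Spearman rho was -0.857 for each (adjusted p = 0.0833, which did not pass). Leaving out the 2 libraries farthest from the median Saa1 gave r of -0.834 and -0.953. In C57BL/6 r with the 6 genes was from 0.184 to 0.755, and none passed (lowest adjusted p = 0.101).

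**Figure D5:**
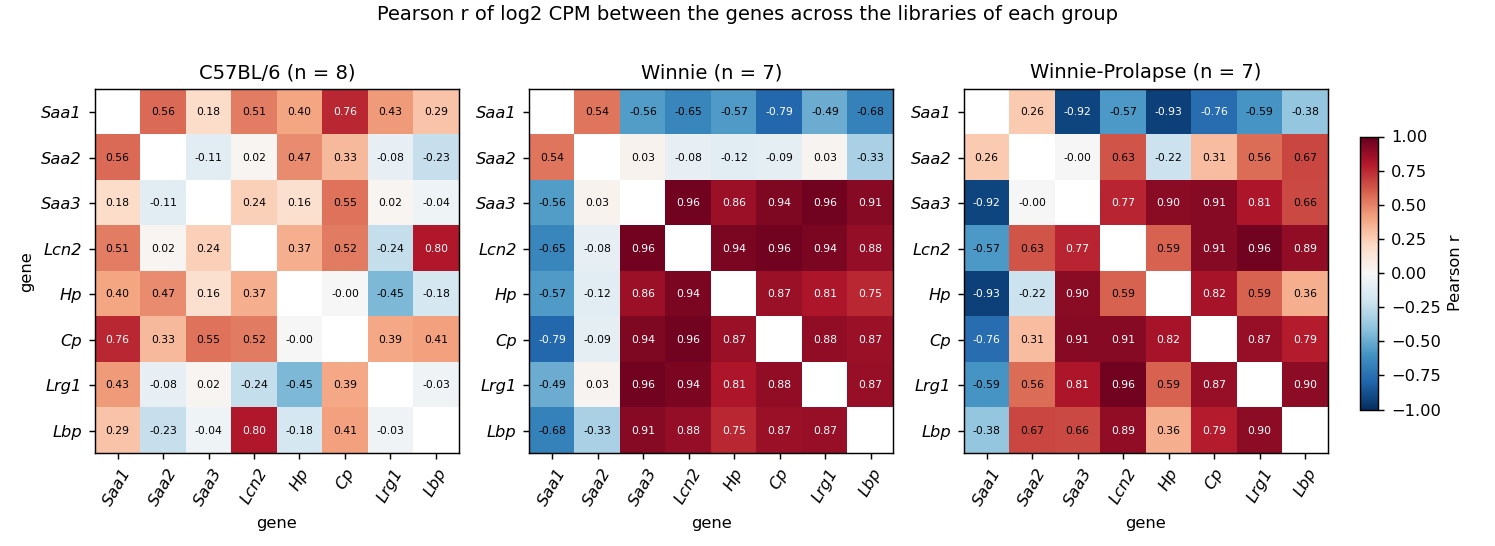
Pearson r of log2 CPM between the 8 genes across the libraries of C57BL/6 (n = 8), Winnie (n = 7) and Winnie-Prolapse (n = 7), on a colour scale from -1 (blue) to 1 (red). The block from Saa3 to Lbp is red in Winnie (0.753 to 0.965) and Winnie-Prolapse (0.36 to 0.964), and the Saa1 row is blue against it.

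The genes whose level ran most closely with each member were named after the mean of each group had been subtracted, over 22 libraries and 13602 genes, as a description. They were Cp, Lbp and Slc41a1 for Lcn2 (r = 0.890, 0.863 and 0.825) and S100a8, Muc1 and Cyba for Lrg1 (0.869, 0.848 and 0.838). For Lbp they were Lcn2, S100a8 and S100a9 (0.863, 0.839 and 0.828), and for Cp they were Txndc11, Lcn2 and H6pd (0.895, 0.890 and 0.874). For Saa3 they were H6pd, Cwh43 and Nod2 (0.812, 0.807 and 0.807), and for Hp they were Pi4k2a, Hs3st1 and Klhl25 (0.830, 0.818 and 0.818). Saa1 ran with A330023F24Rik, Rhoc and Glod5 (0.918, 0.907 and 0.905). The genes most like Saa2 were Ogfrl1, the casein gene Csn2 and the transferrin gene Trf (0.866, 0.849 and 0.828), whose rank correlations were only 0.378, 0.387 and 0.357. Winnie-Prolapse replicate 6 had the highest Saa2, Csn2 and Trf of its group, at 44.6, 72843 and 1415 CPM. Likeness without that library was not computed.

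Summed markers of some other cell types moved between the groups in the same direction as the set, though not library by library in every case. The 11 neutrophil markers, with Ly6g and S100a9 the highest, summed to 4.31 to 359 CPM in C57BL/6, 317 to 651 CPM in Winnie and 530 to 1935 CPM in Winnie-Prolapse. Most of the sum in C57BL/6 was Ly6g, which had a median of 285.7 CPM and only 3.8 CPM in replicate 7. That control library stood apart for other genes too, with Muc2 at 7901 CPM (group median 2903 CPM) and Ttr at 2.57 CPM (group median 52.6 CPM). Without the gene Ly6g, in a sum chosen after its values had been seen, 10 markers had 0.507 to 3.51 CPM in C57BL/6, 1.48 to 125 CPM in Winnie and 67.2 to 1422 CPM in Winnie-Prolapse. The highest were Winnie replicate 2 and Winnie-Prolapse replicate 4, which were also the highest in their group for 6 and 3 genes of the set. Only 3 of the 11 neutrophil markers passed the low-count filter in Winnie against C57BL/6 and 6 in Winnie-Prolapse against C57BL/6. The granule markers Mpo, Elane and Camp did not follow the set, with at most 0.347, 0.165 and 0.617 CPM in any library. Macrophage markers (8, with C1qa and C1qb the highest) summed to 74.1 to 175 CPM in C57BL/6, 102 to 299 CPM in Winnie and 213 to 394 CPM in Winnie-Prolapse. Squamous epithelium markers (8, with Krt14 and Krt5 the highest) summed to at most 3.62 CPM in C57BL/6 and 49 CPM in Winnie, and to 1.69 to 2679 CPM in Winnie-Prolapse, with Sprr1b at 0 in every C57BL/6 library. Winnie-Prolapse replicates 1 and 3 had only 3.97 and 1.69 CPM. The highest squamous sums were in replicates 7 and 2 (2679 and 1803 CPM), which were the highest library for no gene of the set. Winnie replicate 2 had the highest sums of its group for squamous (49 CPM), fibroblast (1069 CPM, 7 markers led by Dcn and Col1a2) and endothelial markers (121 CPM, 5 markers). Smooth muscle markers (6, with Myh11 and Tagln the highest) moved the other way. They summed to 6686 to 12048 CPM in C57BL/6, 1986 to 7309 CPM in Winnie and 1309 to 3178 CPM in Winnie-Prolapse, and 6 of 6 were lower at the 0.05 limit in both comparisons with C57BL/6, where 8.53% and 17.7% of all genes were. The summed fat markers had medians of 83.25, 47.93 and 33.15 CPM in C57BL/6, Winnie and Winnie-Prolapse. For fat the ranges of the groups overlapped. The summed liver markers had medians of 64.28, 55.75 and 26.51 CPM. They had 16.83 to 33.44 CPM in Winnie-Prolapse, below every Winnie library (35.92 to 73.99 CPM). C57BL/6 libraries had 31.33 to 70.67 CPM and overlapped Winnie-Prolapse only through C57BL/6 replicate 7, at 31.33 CPM. The part of these cells in the levels of the set was not tested.

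The genes upstream of the acute phase response were described from lists. Of 10 inducing cytokines, 6 were tested in Winnie-Prolapse against C57BL/6. Some of these were nearly absent from C57BL/6 (the median of Osm was 0.106 CPM) and passed the low-count filter through Winnie-Prolapse, so that their count is not a result. Higher at the 0.05 limit were Il1b (6.93 ± 0.60, SE) and Lif (2.71 ± 0.25, SE) on the log2 scale (edgeR quasi-likelihood test), and also Tnf. Il1a, Osm and Il11 were called too, but had 0 to 15, 1 to 8 and 3 to 13 counts in C57BL/6 libraries. Their folds are therefore not given. Median levels in C57BL/6 and Winnie-Prolapse were 0.22 and 13 CPM for Il1a, and 0.106 and 2.65 CPM for Osm. In Winnie, where 3 were tested, Il1b (3.77 ± 0.66, SE) and Lif (1.5 ± 0.25, SE) were higher. Without Winnie replicate 2 the Il1b difference in Winnie was 2.65. Il6 itself, the classical inducer, was too low to be tested against C57BL/6, with at most 0.077 CPM in C57BL/6, and is named here after its values had been seen. Of 10 cytokine receptors, 3 were higher in Winnie-Prolapse and 2 in Winnie, with the oncostatin M receptor gene Osmr at 2.84 ± 0.22 (SE) and 1.39 ± 0.32 (SE). Of 11 transcription factors, 4 were higher and 1 lower in Winnie-Prolapse and 3 higher in Winnie. They included Cebpb, at 2.08 ± 0.26 (SE) and 0.80 ± 0.17 (SE), and Nfkbiz, an NF-kappa B cofactor, at 1.56 ± 0.21 (SE) and 1.07 ± 0.25 (SE). Of 5 feedback inhibitors, 3 were higher in each comparison, with Socs3, which limits STAT3 signalling, at 3.66 ± 0.29 (SE) and 1.96 ± 0.34 (SE). Beside these counts, 16.7% of all genes were higher and 17.7% lower in Winnie-Prolapse at the 0.05 limit, and 7.42% higher and 8.53% lower in Winnie. Between Winnie-Prolapse and Winnie, where 4.27% of all genes were higher and 2.72% lower, 1 of 10 receptors and 2 of 5 inhibitors were higher, and 1 of 11 transcription factors was higher and 1 lower. Of the cytokines 8 were tested there and 5 were higher (Il1a, Il1b, Il6, Lif and Osm). Il6 had a median of 0.0335 CPM in Winnie and passed the low-count filter through Winnie-Prolapse, so that this count is not a result.

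Of 22 other positive acute phase genes, among them those for C-reactive protein, fibrinogen and hemopexin, 16 were too low to be tested in Winnie-Prolapse against C57BL/6, and of the 6 tested 3 were higher and 2 lower, where 16.7% and 17.7% of all genes were. In Winnie 1 of 6 was higher and 0 lower, where 7.42% and 8.53% of all genes were. Serpina3n, an antichymotrypsin-like protease inhibitor, rose by 3.48 ± 0.38 (SE) in Winnie-Prolapse and 1.79 ± 0.37 (SE) in Winnie on the log2 scale (edgeR quasi-likelihood test). The orosomucoid gene Orm1 passed in Winnie-Prolapse with replicate 6 (4.13 ± 1.27, SE, adjusted p = 0.0124) but not without it (1.21 ± 0.83, SE, adjusted p = 0.241). Of 7 negative acute phase genes, whose plasma proteins fall in inflammation, 4 were tested, and 2 were higher and 1 lower in Winnie-Prolapse and 3 higher in Winnie, beside the same shares of all genes. Trf was higher by 4.50 ± 1.02 (SE) in Winnie-Prolapse with replicate 6 and by 1.33 ± 0.16 (SE) without it. Of 14 other lipocalin genes, 2 were tested in each comparison, of which 1 was higher in Winnie-Prolapse and 0 in Winnie.

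Of 22 genes for partners and receptors of the encoded proteins, 19 were tested in Winnie-Prolapse against C57BL/6, and 10 were higher and 2 lower. These 10 include Fpr1 and Fpr2, which were nearly absent from C57BL/6 and passed the low-count filter through Winnie-Prolapse. The count of 10 is therefore not a result. In Winnie 2 of 17 were higher and 2 lower, near the shares of all genes (7.42% and 8.53%), and in Winnie-Prolapse the shares of all genes were 16.7% and 17.7%. Cd14, which takes lipopolysaccharide from LBP, was higher by 2.46 ± 0.21 (SE) in Winnie-Prolapse and 1.44 ± 0.21 (SE) in Winnie on the log2 scale (edgeR quasi-likelihood test). Fpr2, a receptor for serum amyloid A, had 0 to 9 counts in C57BL/6 libraries. Mmp9, the protease that LCN2 binds, was higher in Winnie-Prolapse by 4.44 ± 0.76 (SE), and by 3.52 without replicate 4. Lower in both were Slc22a17, an LCN2 receptor, at -0.90 ± 0.23 (SE) in Winnie-Prolapse and -0.94 ± 0.23 (SE) in Winnie, and the iron exporter gene Slc40a1, at -1.63 ± 0.36 (SE) and -0.92 ± 0.29 (SE). Of 12 iron handling genes, 6 were higher and 1 lower in Winnie-Prolapse and 4 higher in Winnie. The largest difference among them was of Ltf, which encodes the iron-binding lactoferrin of neutrophil granules and milk. It rose by 9.68 ± 1.14 (SE) in Winnie-Prolapse, 8.40 ± 0.84 (SE) without replicate 6, and 4.63 ± 0.83 (SE) in Winnie, 4.04 without Winnie replicate 2. Ltf had only 3 to 18 counts in C57BL/6 libraries, so that the size of its rise and its place among the 12 genes are uncertain. It passed the low-count filter through the groups where it was higher, so that the counts of 6 and 4 are not results.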

How the data were processed

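Total RNA from the distal colon of 22 mice had been made into stranded poly(A) libraries. The authors deposited whole-number counts per gene, not normalised, for 46078 genes of 22 samples; STAR, featureCounts and limma are named in the submitters' processing notes, and the handling of strand and of reads that fit several genes is not given in the sources used here. Gene positions are those of GRCm38 with GENCODE M21, and promoter sequences those of RefSeq for GRCm38.p6. Counts were fitted with the quasi-likelihood test of edgeR 4.0.16 (R 4.3.3), with TMM scaling and filterByExpr, on the 2 groups compared, and p-values were adjusted by Benjamini-Hochberg over all genes tested. A gene was called at an adjusted p under 0.001 and 1.5-fold, the limits used in the study, and also at an adjusted p under 0.05. SE is the absolute log2 fold change divided by the square root of F. CPM were scaled to the library total. Correlations used log2 CPM with a prior count of 2 and exact permutation (scipy 1.17.1) of 5040 or 40320 orders. Alternatives were library size scaling, DESeq2 1.42.0, limma-voom (limma 3.58.1), other low-count filters, sex as a covariate, a joint fit of the 3 groups, 1 sex alone, other quasi-likelihood settings and leaving out each library.

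The 8 genes and the other gene lists were chosen with earlier results of these data known. Named were all 8 genes, genes of each list by highest mean CPM or largest difference past 0.05, the 2 highest genes of each marker list, and the 3 genes most like each member. The labels give separate mice, numbered here within a group in accession order. The scripts were tested on simulated data. Depth was 24817527 to 36344372 counts per library, and no library pair of a group agreed within sampling noise.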

Additional observations from a re-analysis of the deposited data

Results flagged for a closer look

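Each gene was examined in each group for a library that stood apart, by the gap to the nearest other library as a share of the group's range, against the 95% limit of Dixon's test. Of 24 such groups 11 had one. Chance gives about 1 in 20 for normally distributed values, but CPM are skewed, and over all 17769 genes that passed the low-count filter 11.3% of 53305 such groups had one. The same libraries recur, so the 11 are not independent.

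Winnie replicate 2 stood above its group for Lrg1 at 214 CPM (ratio 0.885), Lcn2 at 23.2 CPM (0.650), Saa3 at 33.9 CPM (0.620) and Lbp at 41.3 CPM (0.614). Winnie-Prolapse replicate 6, the library rich in milk protein transcripts, stood above its group for Saa2 at 44.6 CPM (0.966), Lcn2 at 1015 CPM (0.711) and Lbp at 148 CPM (0.663). Hp stood apart in Winnie-Prolapse replicate 4 at 161 CPM (0.700), and Saa1 in Winnie-Prolapse replicate 3 at 1622 CPM (0.590). Among C57BL/6 libraries, Saa2 stood apart in replicate 1 at 1.5 CPM (0.776) and Lbp in replicate 3 at 7.68 CPM (0.531).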

How the results depend on the processing

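At an adjusted p under 0.001, the count of genes called out of 8 went from 0 to 3 in Winnie against C57BL/6 with DESeq2 (Cp, Lcn2 and Lrg1), and from 0 to 4 in Winnie-Prolapse against Winnie with DESeq2 (Saa3, Lcn2, Hp and Cp). It went from 6 to 2 in Winnie-Prolapse against C57BL/6 in males only (Saa3 and Lrg1) and to 2 in females only (Cp and Lrg1), with fewer samples. At 0.05 it went from 4 to 1 with limma-voom (Cp) and to 0 in females only in Winnie against C57BL/6, and from 7 to 4 in Winnie-Prolapse against C57BL/6 when at least 10 counts were asked for in every library, which left fewer genes tested. In Winnie-Prolapse against Winnie it went from 4 to 7 with all 3 groups in one fit and to 0 in males only, where 0% of 17560 genes were higher. Shares of all genes are not given for the joint fit, the 10-count filter, the one-sex counts at 0.001 and the fits that each leave out 1 library. Those moves and counts are therefore not results about the set. The sex interaction in Winnie went from 0 to 1 (Saa3) with DESeq2. Leaving out each library in turn gave 0 to 0, 6 to 6 and 0 to 0 genes at 0.001, and 4 to 5, 6 to 7 and 4 to 6 at 0.05, in these 3 comparisons in the order Winnie from C57BL/6, prolapse from C57BL/6 and prolapse from Winnie, and 0 to 1 and 0 to 0 in the Winnie and Winnie-Prolapse interactions. Saa1 in Winnie-Prolapse against C57BL/6 passed at 0.05 with limma-voom (-1.55 ± 0.56, SE, adjusted p = 0.0295). The log2 fold change in Winnie against C57BL/6 changed sign in females only for Saa1 (0.06), Saa2 (0.30), Saa3 (-0.37) and Hp (-0.89), for Saa2 without C57BL/6 replicate 1 (0.09) or Winnie replicate 3 (0.02; range on leaving out 1 library -0.25 to 0.09), and for Hp with limma-voom (-0.01) or without Winnie replicate 2 (-0.18; range -0.18 to 0.84). In Winnie-Prolapse against Winnie Saa1 changed sign in males only (0.58). Of the 8 genes' fold changes under the alternatives, 563 kept direction and side of the 0.05 limit, 20 newly passed, 16 no longer passed and 9 changed sign. Unless stated, the cause was not tested. No paired analysis was possible because replicate numbers were given in accession order and pair no mice. Depth limits Saa3 in C57BL/6, where its lowest values lie under 3 counts.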

Other observations

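Il6 was named after its values had been seen, as the inducer of the acute phase response that was too low to be tested against C57BL/6. Between Winnie-Prolapse and Winnie it was tested and called higher at the 0.05 limit. It passed the low-count filter there through Winnie-Prolapse, so that this call is not a result. It had 0 to 2 counts in C57BL/6 libraries. In Winnie its median was 0.0335 CPM and its highest level 1.41 CPM in replicate 2, the library that was also highest for Saa3, Lcn2, Hp, Cp, Lrg1 and Lbp. In Winnie-Prolapse it had 0.121 to 19.9 CPM, with a median of 1.58. The lowest was in replicate 3, which had the highest Saa1, and the highest in replicate 4, which had the lowest Saa1 and the highest Saa3, Hp and Cp.

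Beyond the serum amyloid A genes, the motif TTGCNNAA was found in the windows of Lcn2, 216 bases before the start, and of Cp, 70 bases before the start on the opposite strand, but not in that of Lrg1.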
